A study of Mus musculus with 11 samples.

Results

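De-differentiated Oct4+ cells were compared with committed Pdgfra+ endoderm in bulk RNA-seq of sorted mouse cells, as 3 libraries against 3 of the 11 samples in the series. All 6 libraries came from 1 naive extra-embryonic endoderm (nEnd) line, which is cultured as a stem cell equivalent of primitive endoderm (PrE), the blastocyst lineage. The line carried a reporter that fuses mCherry to the OCT4 protein, and the labels record no treatment. Cells grew on mouse embryonic fibroblast feeders in RACL, an RPMI-based medium with Activin A, the GSK3 inhibitor CHIR99021 and LIF, and were stained for PDGFRA, a receptor that marks PrE. Flow cytometry then separated Oct4+ cells, which showed the reporter and no PDGFRA, from Pdgfra+ cells, which showed PDGFRA and no reporter. A further gate held cells with both (DP), whose 3 libraries entered the fit to share its estimate of the spread. The study describes the Oct4+ cells as endoderm that has gone back to a state resembling the epiblast (Epi). The comparison rests on 1 reporter line, whose libraries the study calls biological replicates, while the labels only number them. The members here were genes: 14185 of the 48952 genes in the table had enough counts to be tested.

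Epi and PrE are the sister lineages of the inner cell mass. OCT4, SOX2 and NANOG hold the naive Epi state together with factors such as ESRRB and KLF2, whereas GATA6, GATA4 and SOX17 specify PrE, which goes on to form visceral and parietal endoderm. Parietal endoderm is known for secreting a thick basement membrane of type IV collagen and laminin, and visceral endoderm for taking up and breaking down maternal proteins. FGF4 made by Epi cells signals through ERK in PrE precursors, which is how the sister lineages are balanced in the blastocyst.

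Libraries held 8019631 to 11642571 reads. Oct4+ libraries detected 21748 to 22321 genes with at least 1 read and Pdgfra+ libraries 18715 to 19139. Over the genes tested, the median absolute difference in log2 CPM was 0.229 to 0.279 between Pdgfra+ libraries and 0.297 to 0.361 between Oct4+ libraries, against 0.844 to 0.951 for the 9 pairs across the groups. Oct4+ replicate 2 was nearest to each Pdgfra+ library. Mitochondrial genes took 0.877% to 1.48% of the reads in Oct4+ and 1.05% to 1.15% in Pdgfra+. Levels below are CPM (the reads of a gene relative to those of its library, on the customary scale) on library sizes scaled by the trimmed mean of M values (TMM), listed for replicates 1, 2 and 3 in that order. Fold changes are log2 of Oct4+ over Pdgfra+ from edgeR's quasi-likelihood test, and p-values are adjusted over all genes tested (Benjamini-Hochberg). That test gives no standard error (SE). The SE shown after ± is the absolute fold change divided by the square root of the test's F statistic. It is approximate, and least reliable where a group has few reads. A gene was called where the adjusted p was below 0.05 and the fold change was beyond 1.5 on the log2 scale in either direction. In bulk libraries, fewer cells that express a gene and less RNA per cell cannot be told apart.

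The genes behind the sort followed the labels. Pou5f1, which encodes OCT4, was at 26.4, 8.37 and 17.6 CPM in Pdgfra+ and at 1137, 944 and 861 CPM in Oct4+. Pdgfra was at 684, 535 and 967 CPM in Pdgfra+ and at 4.96, 12.1 and 5.21 CPM in Oct4+. Both genes were chosen by the gates, so that their differences (5.82 ± 0.46 and -6.62 ± 0.44) describe the sort and are no result of it. Of the markers that the gates did not use, Nanog and Sox2 marked Oct4+ and Col4a1 marked Pdgfra+ without overlap.

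Nanog, which encodes the homeodomain factor of the naive network, lies at chr6:122707489-122714633 on the plus strand (GRCm38, GENCODE vM21). It was at 0.610, 3.09 and 1.67 CPM in Pdgfra+ and at 644, 332 and 639 CPM in Oct4+ (8.18 ± 0.60, adjusted p = 4.2e-06). The groups did not overlap, and the spread within Oct4+ was small beside the gap to Pdgfra+. Its promoter is shown as an example, since this gene has a known link to OCT4 and was among those with the largest change. Others of these genes, such as Sox2, have such a link too. The 250 bases before the RefSeq start site (GRCm38.p6, chr6:122707239-122707488, plus strand) are printed with capitals for the letters TTTGCAT, the reverse complement of ATGCAAA.
Nanog: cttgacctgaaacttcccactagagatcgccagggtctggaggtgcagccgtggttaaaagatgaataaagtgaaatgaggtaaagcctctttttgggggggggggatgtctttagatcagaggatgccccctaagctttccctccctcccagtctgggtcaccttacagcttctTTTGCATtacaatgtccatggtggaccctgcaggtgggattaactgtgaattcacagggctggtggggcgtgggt
The stretch in capitals ends 69 bases before the start site. The full octamer ATGCAAAT, which OCT factors are known to bind, was not in this window on either strand. The shorter form ATGCAAA was searched after that was seen, and 4.06% of the 27025 promoters of this length held it on either strand, against 1.61% for ATGCAAAT, a share that it includes. A match is a description of letters, and binding was not measured.

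Sox2, the partner of OCT4 at many of its sites, lies at chr3:34650405-34652461. It was at 0.366, 2.79 and 1.88 CPM in Pdgfra+ and at 442, 436 and 276 CPM in Oct4+ (7.78 ± 0.48, adjusted p = 2.0e-06). Col4a1, a chain of type IV collagen, lies at chr8:11198423-11312826 on the minus strand. It was the most abundant gene of every Pdgfra+ library, at 27885, 18679 and 26713 CPM, and stood at 84.9, 192 and 67.7 CPM in Oct4+ (-7.73 ± 0.51, adjusted p = 2.6e-06). Its partner chain Col4a2 starts head to head with it on the other strand, at chr8:11312805-11449287, and the 250 bases before the start of Col4a1 all lie within the first exon of Col4a2. Col4a2 was at 14812, 10339 and 15496 CPM in Pdgfra+ and at 44.4, 100.3 and 30.6 CPM in Oct4+ (-7.86 ± 0.52). Within Oct4+, both collagen chains were highest in replicate 2 and lowest in replicate 3.

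**Figure D1:**
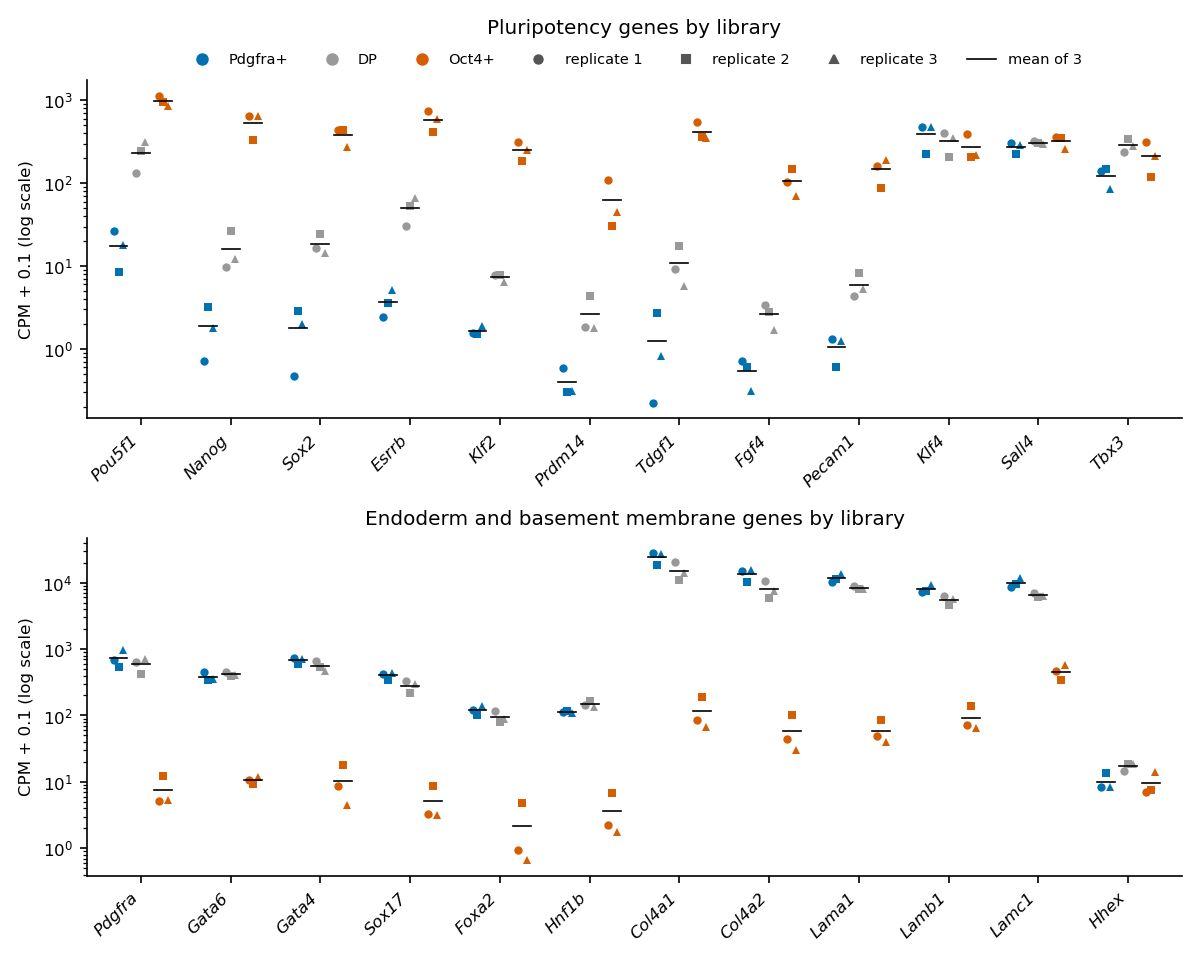
Level of 12 pluripotency genes (top) and 12 endoderm and basement membrane genes (bottom) in each of the 9 sorted libraries, as CPM + 0.1 on a log axis, with points for replicates and a bar for their mean. Nanog, Sox2 and Col4a1 separate Oct4+ from Pdgfra+ in every library, whereas Klf4, Sall4 and Hhex do not.

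Of the 14185 genes tested, 4535 were called (32.0%), of which 2455 were higher in Oct4+ (17.3%) and 2080 were lower (14.7%). The counts of each list below are to be read beside these shares. The libraries of the groups did not overlap for 9833 genes, or 69.3% of those tested, so that the lack of overlap alone sets few genes apart. The median over all genes tested was 0.01. Of the genes higher in Oct4+, 831 were beyond 5 on the log2 scale, against 206 of the genes lower in Oct4+. These counts depend on level, since a gene near 0 CPM in 1 group can reach a large fold change. With a stricter filter (at least 5 CPM in 3 libraries), 1462 genes were higher and 1595 were lower. Genes higher in Oct4+ had a median level of 0.509 CPM in Pdgfra+ and 8.84 CPM in Oct4+, whereas genes lower in Oct4+ had 43.9 CPM in Pdgfra+ and 6.17 CPM in Oct4+. Genes lower in Oct4+ took 27.9% to 31.6% of the reads of a Pdgfra+ library and 4.57% to 5.18% of an Oct4+ library. Genes higher in Oct4+ took 9.87% to 10.8% of an Oct4+ library and 1.31% to 1.37% of a Pdgfra+ library. Protein-coding genes made up 82.2% of the genes higher and 91.5% of those lower.

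**Figure D2:**
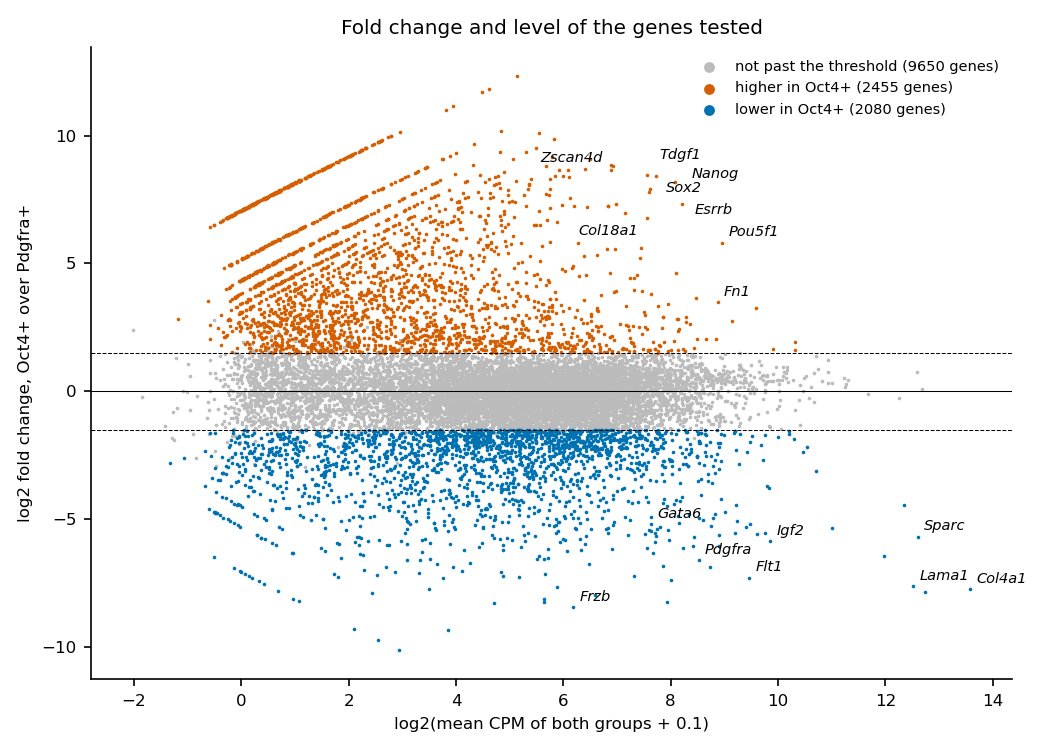
Log2 fold change (Oct4+ over Pdgfra+) of 14185 genes against the log2 of their mean CPM over both groups (+ 0.1), with dashed lines at the fold threshold. Lines of points at low levels are genes with 0, 1 or a few reads in one group. The 2455 genes higher in Oct4+ spread to larger fold changes at low and middle levels, and Col4a1, Lama1 and Sparc lie at the highest levels among the 2080 lower genes.

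A gene may be called through a shift in level or by being nearly silent on one side. The second kind was counted as genes with every library of one group below 1 CPM and every library of the other above 10 CPM. Of the 14185 genes tested, 198 were of this kind and expressed in Oct4+, and 31 were expressed in Pdgfra+. Among genes with at least 10 reads in the lower group and at least 50 CPM in the higher one, the 10 with the largest rise in Oct4+ were Eif1ad15, Zscan4a, Zscan4-ps3, Zscan4d, Tdgf1, Eif4a3l1, Nanog, Fgf4, Trh and Sox2, with fold changes from 7.78 to 8.84. Trh, which encodes the precursor of thyrotropin-releasing hormone, was at 0.488, 2.99 and 1.25 CPM in Pdgfra+ and at 658, 360.4 and 156 CPM in Oct4+ (7.90 ± 0.68, adjusted p = 9.5e-06). Its Oct4+ replicates differed among themselves by several fold, yet the lowest was far above Pdgfra+.

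The 10 genes with the largest fall, by the same rule, were Frzb, Mamld1, Pitx1, Thbd, Glipr1, Col4a2, Col4a1, Ntn4, Lama1 and Hs3st1, from -7.40 to -8.45. Pitx1, a homeobox factor, was at 324, 343 and 792 CPM in Pdgfra+ and at 1.40, 3.35 and 0 CPM in Oct4+ (-8.23 ± 0.87, adjusted p = 3.1e-05). Frzb, a secreted WNT antagonist, was at 126, 65.9 and 243 CPM in Pdgfra+ and below 1 CPM in every Oct4+ library (-8.45 ± 0.97, adjusted p = 5.2e-05). Hs3st1, which sulfates heparan sulfate, was at 567, 350.1 and 624 CPM in Pdgfra+ and at 1.55, 5.42 and 2.22 CPM in Oct4+ (-7.40 ± 0.53, adjusted p = 3.9e-06).

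Of 20 core and naive pluripotency transcription factors, 15 were higher in Oct4+, none was lower and 5 were not called, and the list's median was 4.57 against 0.01 over all genes tested. Esrrb, an orphan nuclear receptor of the naive network, was at 2.32, 3.49 and 5.01 CPM in Pdgfra+ and at 752, 419 and 588 CPM in Oct4+ (7.33 ± 0.42, adjusted p = 1.5e-06). Klf2, a Krüppel-like factor, was at 1.46, 1.39 and 1.77 CPM in Pdgfra+ and at 312, 187 and 254 CPM in Oct4+ (7.33 ± 0.26, adjusted p = 2.7e-07). Prdm14, which represses differentiation genes in naive cells, had 8 reads in all of Pdgfra+ and stood at 109.9, 30.5 and 45.3 CPM in Oct4+ (7.68 ± 0.71, adjusted p = 1.5e-05). These genes overlapped in no library. Tfcp2l1, another naive factor, was already at 35.3 to 43.4 CPM in Pdgfra+ and reached 455, 167 and 564 CPM in Oct4+ (3.34 ± 0.44), with its lowest Oct4+ value in replicate 2.

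The other 5 members were not called. Klf4 was at 482, 226 and 470.2 CPM in Pdgfra+ and at 396, 207 and 219 CPM in Oct4+ (-0.52 ± 0.35, adjusted p = 0.224). Sall4, a zinc finger factor shared by Epi and PrE, was at 305, 222 and 289 CPM in Pdgfra+ and at 357, 351 and 255 CPM in Oct4+ (0.24 ± 0.17, adjusted p = 0.233). For both genes the groups overlapped. The same held for Klf5 (0.18 ± 0.33) and Tbx3 (0.80 ± 0.33), whereas Sall1 (1.47 ± 0.30) did not overlap and was just inside the fold threshold. Sall1 crossed it without Oct4+ replicate 1 or 3 or Pdgfra+ replicate 1 (1.51 to 1.74), and with all libraries under DESeq2 (1.55), a stricter filter (1.57), total counts (1.76) or the 6 libraries alone (1.51). The Krüppel-like factors thus differed from one another, with Klf2 called and Klf4 and Klf5 within the spread of the replicates.

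Of 20 pluripotency cofactors, surface and secreted proteins, 16 were higher in Oct4+, Epcam was lower and 3 were not called (median 4.47). Tdgf1, the co-receptor of Nodal also known as Cripto, was at 0.122, 2.59 and 0.731 CPM in Pdgfra+ and at 548, 356 and 356 CPM in Oct4+ (8.43 ± 0.66, adjusted p = 6.0e-06). Pecam1, the adhesion molecule PECAM that marks naive Epi cells, was at 1.22, 0.498 and 1.15 CPM in Pdgfra+ and at 159, 86.7 and 193 CPM in Oct4+ (7.26 ± 0.45, adjusted p = 2.0e-06). Jam2, a junctional adhesion molecule, rose by a similar amount (6.98 ± 0.40), as did Gdf3, a ligand of the TGF-beta family (8.11 ± 0.57, 5 reads in Pdgfra+). Epcam, an adhesion molecule of epithelia and embryonic stem cells, was at 519.5, 422 and 473 CPM in Pdgfra+ and at 153, 99.8 and 61.3 CPM in Oct4+ (-2.17 ± 0.29, adjusted p = 1.2e-04). Lin28a (-0.58 ± 0.45), Trim71 (0.88 ± 0.16) and Mycn (-1.24 ± 0.53) were not called, but Mycn was lower without Oct4+ replicate 2 (-2.43, adjusted p = 4.5e-05).

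Formative and primed genes, which mark Epi cells on the way to implantation, had 10 of 15 tested members higher in Oct4+ and none lower (median 2.53). Sox3, a SOXB1 factor, was at 1.34, 0.797 and 1.67 CPM in Pdgfra+ and at 33.3, 25.8 and 72.5 CPM in Oct4+ (5.10 ± 0.48, adjusted p = 1.6e-05). Foxd3, a forkhead factor, was at 0.122, 0.299 and 0.313 CPM in Pdgfra+ and at 28.7, 37.4 and 11.7 CPM in Oct4+ (6.62 ± 0.55, adjusted p = 8.2e-06). Otx2, which drives the exit from the naive state, was at 3.66, 8.37 and 1.15 CPM in Pdgfra+ and at 19.2, 113 and 5.32 CPM in Oct4+ (3.37 ± 1.0, adjusted p = 0.0139). Here 1 library set the value: Otx2 in Oct4+ replicate 3 was below its level in Pdgfra+ replicate 2, and without Oct4+ replicate 2 the fold change was 1.48, adjusted p = 0.107. Fgf5, the classic primed marker, was at 0.610, 3.59 and 0.104 CPM in Pdgfra+ and at 2.56, 21.7 and 1.22 CPM in Oct4+ and was not called (2.53 ± 1.20, adjusted p = 0.0882). Its call appeared without Oct4+ replicate 3 (3.03, adjusted p = 0.0417) and without Pdgfra+ replicate 2 (4.54, adjusted p = 0.0253). It was also called by DESeq2 (2.63, adjusted p = 0.0323) and without a filter on low counts (2.50, adjusted p = 0.00654). Without Pdgfra+ replicate 3, 1 member of the list was lower.

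All 15 genes of the 2-cell-like list with a row in the table were tested and higher in Oct4+ (median 8.14). These genes mark a rare state of embryonic stem cells that resembles the 2-cell embryo. Zscan4d, of the Zscan4 zinc finger family that is known for telomere maintenance in embryonic stem cells, was at 0.366, 0.996 and 0.313 CPM in Pdgfra+ and at 95.3, 226 and 389 CPM in Oct4+ (8.66 ± 0.75, adjusted p = 1.1e-05). Tmem92 was at 0.244, 0.398 and 0.313 CPM in Pdgfra+ and at 48.7, 124 and 149.6 CPM in Oct4+ (8.32 ± 0.68, adjusted p = 7.6e-06). Usp17la, of a family of deubiquitinases, had 3 reads in all of Pdgfra+ and 55.1, 54.8 and 228 CPM in Oct4+, a ratio of 959.8-fold (95% interval 328 to 4656). Replicate 3 was the highest Oct4+ library and replicate 1 the lowest for every Zscan4 gene listed. The summed level of the list was 2.20, 6.48 and 2.82 CPM in Pdgfra+ and 663, 1189 and 2257 CPM in Oct4+. Copies of Zscan4 and of Usp17l are nearly identical, so that the counting may have split reads among them and single values are uncertain.

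Enzymes that write and erase DNA methylation moved unevenly: of 14 genes, 5 were higher and 1 was lower. Tet1, which oxidises 5-methylcytosine, was at 23.1, 20.6 and 35.4 CPM in Pdgfra+ and at 515, 379.8 and 213 CPM in Oct4+ (3.81 ± 0.34, adjusted p = 1.2e-05), and Tet2 rose with it (3.02 ± 0.34). Tet3 was at 85.1, 86.1 and 137 CPM in Pdgfra+ and at 14.6, 12.3 and 12.7 CPM in Oct4+ (-2.96 ± 0.26, adjusted p = 1.1e-05). The TET family thus moved in opposite directions, with Tet1 and Tet2 above and Tet3 below in every Oct4+ library. Dnmt3a (2.25 ± 0.23) and Dnmt3l (2.39 ± 0.47), the de novo methyltransferase and its inactive partner, were higher, whereas Dnmt3b (0.50 ± 0.49) was not called.

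Of 21 tested germline genes that DNA methylation is known to hold silent, 13 were higher in Oct4+ and Rhox6 was lower (-1.75 ± 0.52), with a median of 2.82. No member was lower without Oct4+ replicate 1, without Pdgfra+ replicate 3 or on total counts, and 3 were without Oct4+ replicate 3. Dazl, an RNA-binding protein of germ cells, was at 1.10, 0.0996 and 0.522 CPM in Pdgfra+ and at 44.3, 31.4 and 60.0 CPM in Oct4+ (6.33 ± 0.53, adjusted p = 8.6e-06). Stk31 (4.07 ± 0.40) and Mael (4.47 ± 0.69), with roles in spermatogenesis, rose as well. Rhox5, a homeobox gene of the X chromosome, was at 558, 579.9 and 474 CPM in Pdgfra+ and at 25, 38.6 and 392 CPM in Oct4+ and was not called (-1.82 ± 0.81, adjusted p = 0.0723). Its Oct4+ replicates 1 and 2 were low and replicate 3 lay near the Pdgfra+ range, and without replicate 3 the gene was lower (-4.08, adjusted p = 5.6e-06), as it was without a filter on low counts (-1.87, adjusted p = 7.7e-04).

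Polycomb genes changed in both directions, with 5 of 24 higher and 4 lower, shares near the 17.3% and 14.7% over all genes tested. Jarid2 was at 91.4, 80.0 and 76.2 CPM in Pdgfra+ and at 601, 506 and 522 CPM in Oct4+ (2.72 ± 0.15, adjusted p = 1.4e-06), and Mtf2 changed by a similar amount (2.84 ± 0.21). Both are accessory subunits of Polycomb repressive complex 2, and its core subunit Eed was higher too (1.64 ± 0.15). Its catalytic subunits differed. Ezh1 was lower (-1.74 ± 0.22), a call lost on total counts (-1.46, adjusted p = 2.4e-04). Ezh2 was at 90.7, 90.4 and 82.1 CPM in Pdgfra+ and at 191, 158 and 163 CPM in Oct4+ (0.96 ± 0.12, adjusted p = 1.0e-04). Its groups did not overlap, but it was short of the fold threshold. Pcgf5, a subunit of Polycomb repressive complex 1, was at 169.9, 236 and 232 CPM in Pdgfra+ and at 15.4, 22.8 and 27.7 CPM in Oct4+ (-3.28 ± 0.23, adjusted p = 3.3e-06). Of the chromodomain genes, Cbx8 was lower (-3.47 ± 0.49) and Cbx6 was higher (1.70 ± 0.26), a call lost without Pdgfra+ replicate 2 (1.41, adjusted p = 4.6e-04).

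**Figure D3:**
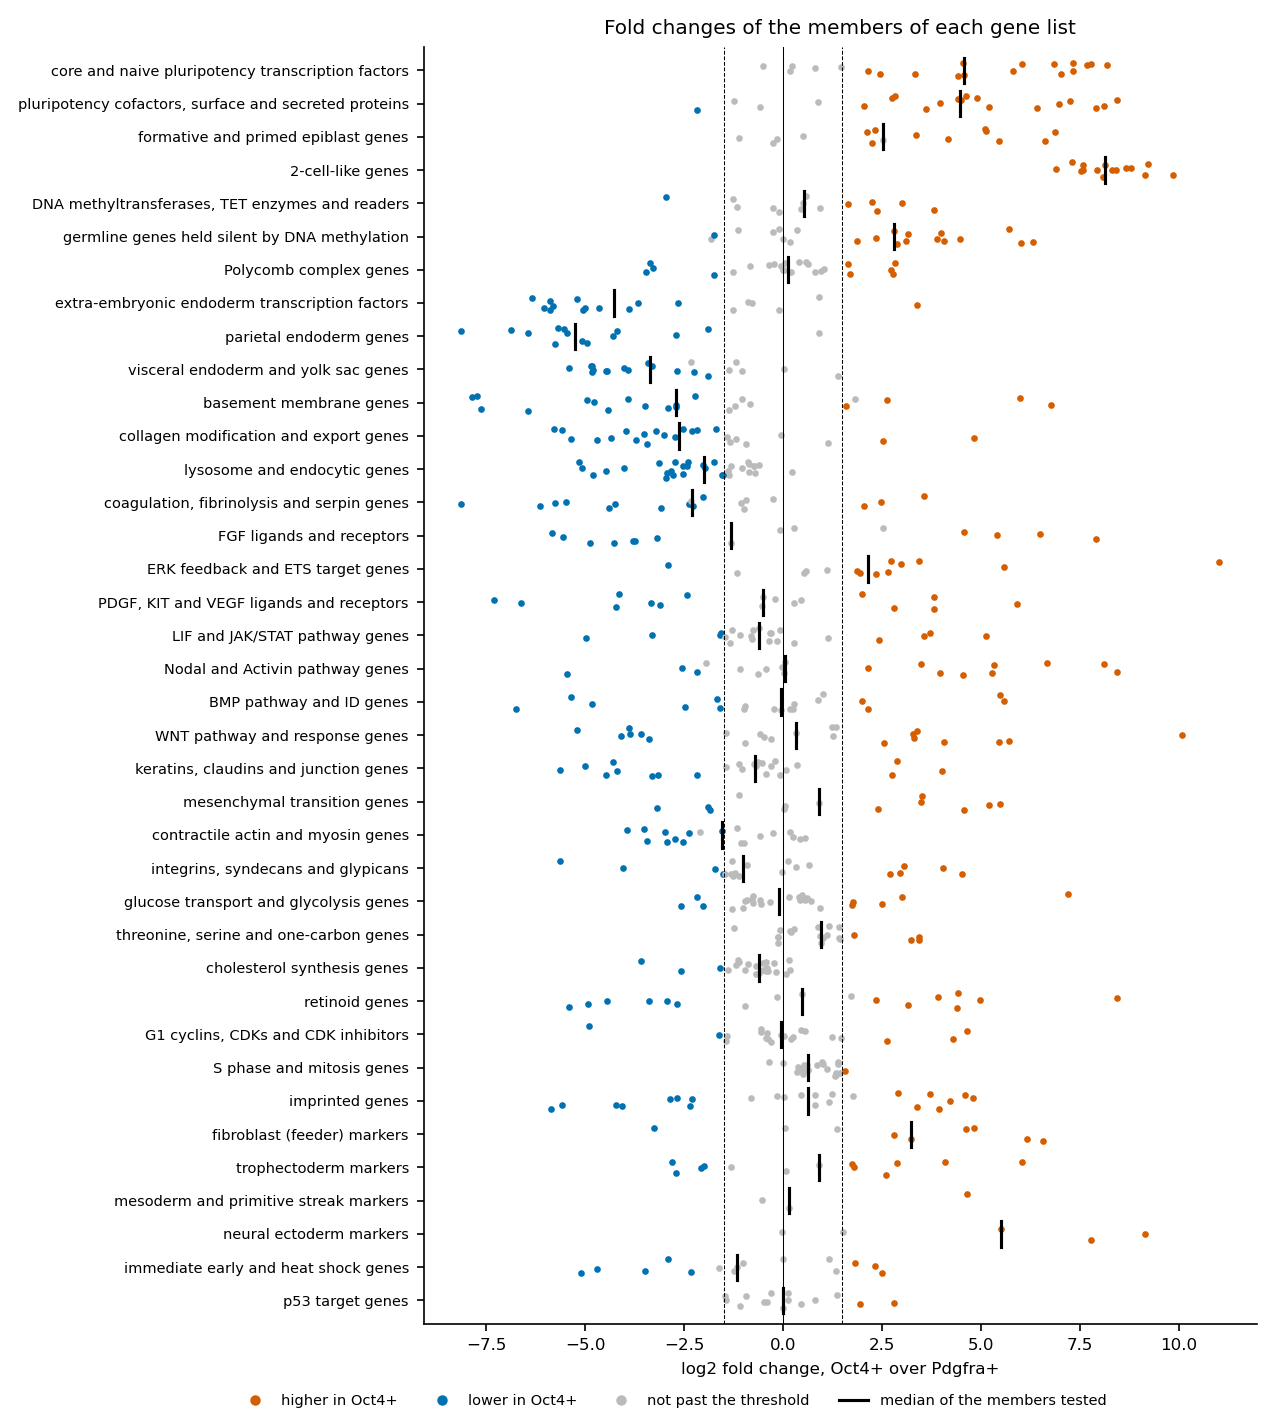
Log2 fold change (Oct4+ over Pdgfra+) of the tested members of 38 gene lists, with 1 point per gene coloured by its call, a bar for the list's median and dashed lines at the fold threshold. Naive pluripotency and 2-cell-like genes lie to the right and endoderm, collagen and lysosome genes to the left. Signalling lists hold called members on both sides, whereas the one-carbon, cholesterol and S phase lists hold them on 1 side only.

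On the endoderm side, 12 of 18 transcription factors were lower in Oct4+, Foxa1 was higher and 5 were not called (median -4.28). Gata6, the factor that initiates PrE, was at 456, 341 and 357 CPM in Pdgfra+ and at 10.5, 9.17 and 11.7 CPM in Oct4+ (-5.20 ± 0.18, adjusted p = 2.7e-07). Gata4 was at 728, 595 and 705 CPM in Pdgfra+ and at 8.53, 17.9 and 4.32 CPM in Oct4+ (-6.04 ± 0.45, adjusted p = 4.6e-06). Sox17, an SRY-box factor of endoderm, was at 419.8, 346 and 439 CPM in Pdgfra+ and at 3.18, 8.68 and 3.10 CPM in Oct4+ (-6.33 ± 0.40, adjusted p = 2.2e-06). No Oct4+ library overlapped Pdgfra+ for these genes, and Gata6 varied least among the Oct4+ replicates. Foxa1, a forkhead factor related to Foxa2, was at 0.854, 1.30 and 1.04 CPM in Pdgfra+ and at 9.46, 14.1 and 10.4 CPM in Oct4+ (3.39 ± 0.50, adjusted p = 2.5e-04), while Foxa2 fell (-5.89 ± 0.56). Hhex, a homeobox factor of anterior endoderm, was at 8.30, 13.3 and 8.25 CPM in Pdgfra+ and at 6.82, 7.39 and 14 CPM in Oct4+ and was not called (-0.09 ± 0.33, adjusted p = 0.819).

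The level at which endoderm genes remained in Oct4+ was described as a share of Pdgfra+. For the 25 endoderm transcription factors and basement membrane genes called lower, the median level in Oct4+ replicates 1, 2 and 3 was 2.16%, 4.73% and 2.27% of the Pdgfra+ mean. For the 31 pluripotency genes called higher, the median level in Pdgfra+ was 2.25%, 1.29% and 2.30% of the Oct4+ mean. Since the genes were picked by this comparison, the low values follow from their choice, and the differences among genes and replicates are what the measure adds. In DP, the same endoderm genes stood at 84.8%, 58.5% and 69.7% of the Pdgfra+ mean and the same pluripotency genes at 7.10%, 15.3% and 16.6% of the Oct4+ mean.

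Col4a2 had the lowest remaining level, at 0.328%, 0.740% and 0.226% of Pdgfra+, and Smoc1, a calcium-binding matrix protein, the highest, at 25.4%, 11.4% and 27.1%. Sox17 stood at 0.791%, 2.16% and 0.773% and Gata6 at 2.74%, 2.38% and 3.05%. Replicate 2 was the highest Oct4+ library for 17 of the 25 genes, among them Sox17, Gata4, Foxa2, Col4a1 and Lama1, and the lowest for 5, namely Gata6, Lamc1, Nid1, Hspg2 and Smoc1. In the reverse direction, Nanog stood at 0.113%, 0.574% and 0.310% of its Oct4+ mean in Pdgfra+ and Pou5f1 at 2.69%, 0.853% and 1.80%, while L1td1 stood at 23.7%, 29% and 20.2%.

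**Figure D4:**
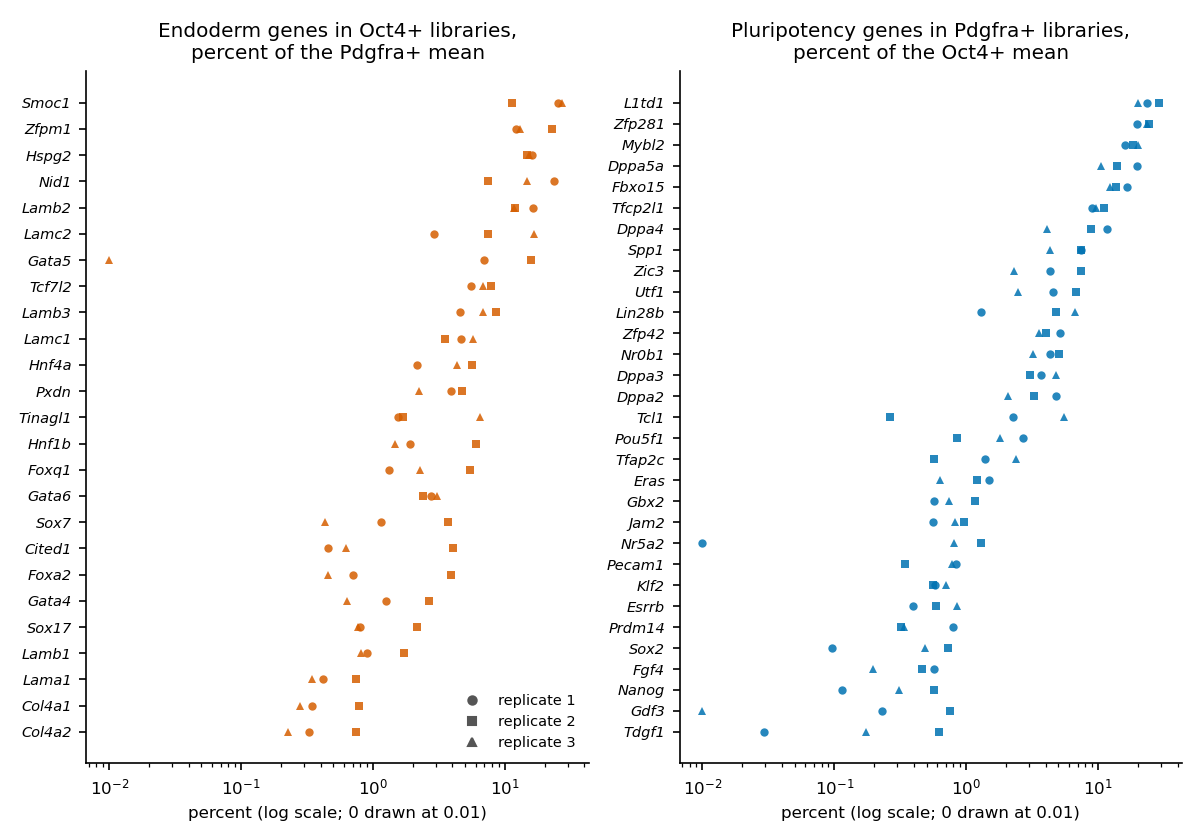
Level of 25 endoderm genes in the Oct4+ libraries as a percent of the Pdgfra+ mean (left) and of 31 pluripotency genes in the Pdgfra+ libraries as a percent of the Oct4+ mean (right), on log axes, with 1 marker per replicate and values of 0 drawn at 0.01. Type IV collagens and Lama1 retain the least in Oct4+, and replicate 2 lies to the right for most endoderm transcription factors.

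Of 14 tested genes of parietal endoderm, 13 were lower and none was higher (median -5.27), while 1 was higher without Oct4+ replicate 2 or Pdgfra+ replicate 1. Sparc, a matrix glycoprotein that parietal endoderm secretes in bulk, was at 15797, 9996 and 10976 CPM in Pdgfra+ and at 145, 286 and 281 CPM in Oct4+ (-5.69 ± 0.40, adjusted p = 3.7e-06). Pth1r, the receptor for parathyroid hormone-related protein, was at 1007, 542 and 982 CPM in Pdgfra+ and at 3.41, 16.6 and 1.77 CPM in Oct4+ (-6.86 ± 0.80, adjusted p = 5.4e-05). Dab2, an endocytic adaptor, was at 1148, 1216 and 1165 CPM in Pdgfra+ and at 8.68, 67.2 and 28.5 CPM in Oct4+ (-5.08 ± 0.60, adjusted p = 6.3e-05). Vim, the intermediate filament of mesenchymal cells, was not called (0.90 ± 0.33).

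Genes of visceral endoderm and yolk sac had 14 of 20 tested members lower and none higher (median -3.36), while 1 or 2 were higher when any single library but Oct4+ replicate 3 was left out. Cubn and Lrp2 encode the receptors cubilin and megalin, which take up proteins at the apical surface, and Amn encodes the partner of cubilin. Lrp2 was at 1188, 1051 and 1196 CPM in Pdgfra+ and at 22.7, 105 and 27.9 CPM in Oct4+ (-4.47 ± 0.56, adjusted p = 8.7e-05), with Cubn (-4.81 ± 0.56) and Amn (-4.02 ± 0.49) alongside. Cyp26a1, which degrades retinoic acid, was at 328, 444 and 493 CPM in Pdgfra+ and at 7.05, 12.1 and 10.8 CPM in Oct4+ (-5.41 ± 0.36, adjusted p = 3.0e-06). Plasma protein genes of the late yolk sac were low in both groups: Afp was at 4.15, 4.38 and 3.24 CPM in Pdgfra+ and below 1 CPM in Oct4+ (-4.82 ± 0.85), and Alb had 0 or 1 read per library. Apoe was at 828, 648 and 555 CPM in Pdgfra+ and at 331, 337 and 329 CPM in Oct4+ (-1.03 ± 0.17, adjusted p = 5.4e-04), short of the fold threshold.

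Basement membrane genes fell and rose in part, with 13 of 22 tested members lower, 4 higher and a median of -2.71. The 3 chains of laminin-111, which is the laminin of the early embryo, all fell. Lama1 was at 10236, 11247 and 13537 CPM in Pdgfra+ and at 49.1, 86.4 and 40.2 CPM in Oct4+ (-7.64 ± 0.33, adjusted p = 9.2e-07), Lamb1 changed by -6.44 ± 0.34 and Lamc1 by -4.43 ± 0.23. Lamc1, which is shared among laminins, was still at 462, 346 and 570.0 CPM in Oct4+. Col18a1, a collagen whose cleavage yields endostatin, went the other way, from 2.81, 2.69 and 4.70 CPM in Pdgfra+ to 351, 294 and 473 CPM in Oct4+ (6.77 ± 0.31, adjusted p = 9.2e-07). The laminin chain Lama3 was also higher (6.0 ± 0.86), at 14.4, 5.32 and 17.1 CPM in Oct4+. Hspg2, which encodes the proteoglycan perlecan, was at 1372, 1707 and 1298 CPM in Pdgfra+ and at 233, 214 and 223 CPM in Oct4+ (-2.71 ± 0.22, adjusted p = 7.6e-06). Lama5 (-0.82 ± 0.22), Nid2 (-1.04 ± 0.17) and Agrn (-1.36 ± 0.19) differed by less than the fold threshold, which Agrn passed without Oct4+ replicate 3 (-1.54, adjusted p = 1.5e-04). The summed level of the list was 75592, 63727 and 84127 CPM in Pdgfra+ and 2733, 2431 and 2973 CPM in Oct4+.

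Among genes for the modification and export of collagen, 16 of 24 tested were lower and 2 were higher (median -2.64). Serpinh1, the collagen chaperone HSP47, was at 4332, 3444 and 4261 CPM in Pdgfra+ and at 75, 128 and 90.2 CPM in Oct4+ (-5.36 ± 0.25, adjusted p = 9.9e-07). P4ha1, the prolyl hydroxylase that stabilises the triple helix, was at 1250.4, 804 and 935 CPM in Pdgfra+ and at 42.9, 43.6 and 27.8 CPM in Oct4+ (-4.71 ± 0.37, adjusted p = 5.7e-06). P3h2 (-5.79 ± 0.45), which hydroxylates type IV collagen at a different position, and Plod2 (-3.71 ± 0.25), a lysyl hydroxylase, were lower too. Lysyl oxidases parted ways, with Loxl2 lower (-5.59 ± 0.96) and Loxl1 (4.84 ± 0.69) and Loxl3 (2.53 ± 0.58) higher.

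Lysosomal and endocytic genes had 20 of 32 members lower and none higher (median -2.0). Ctsl, the protease cathepsin L, was at 3623, 2696 and 2672 CPM in Pdgfra+ and at 266, 391 and 364 CPM in Oct4+ (-3.14 ± 0.20, adjusted p = 2.4e-06). Ctsh, another cathepsin, was at 588, 770.4 and 310.1 CPM in Pdgfra+ and at 5.04, 40.6 and 1.33 CPM in Oct4+ (-5.15 ± 0.96, adjusted p = 0.00101), with replicate 2 far above the other two Oct4+ libraries. Glb1 (-0.60 ± 0.28), which encodes a lysosomal glycosidase, and the regulator Tfeb (-0.74 ± 0.27) were not called.

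Of 18 tested genes of coagulation, fibrinolysis and the serpins, 10 were lower and 3 were higher (median -2.29). F3, tissue factor, was at 501, 441 and 825 CPM in Pdgfra+ and at 7.36, 7.59 and 9.98 CPM in Oct4+ (-6.15 ± 0.43, adjusted p = 3.6e-06). Thbd, thrombomodulin, was at 97.7, 51.3 and 148 CPM in Pdgfra+ and at 0.543, 0.0986 and 0.333 CPM in Oct4+ (-8.13 ± 0.93, adjusted p = 4.8e-05). Plat, tissue plasminogen activator, changed by -5.77 ± 0.68. The initiator of the clotting cascade and a receptor that restrains it were thus both lower in Oct4+. Anxa1, an annexin, was higher (3.57 ± 0.48), while Anxa2 was lower (-4.39 ± 0.32).

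FGF ligands and receptors changed in both directions, with 4 of 15 tested higher and 7 lower, against 17.3% and 14.7% of all genes tested. Without Oct4+ replicate 3 or Pdgfra+ replicate 2 there were 7 higher. Fgf4, the ligand that Epi cells make, was at 0.610, 0.498 and 0.209 CPM in Pdgfra+ and at 104, 148 and 69.3 CPM in Oct4+ (7.91 ± 0.45, adjusted p = 1.5e-06). Fgfr1, an FGF receptor, was at 0.977, 0.199 and 1.88 CPM in Pdgfra+ and at 75.2, 95.3 and 109 CPM in Oct4+ (6.51 ± 0.49, adjusted p = 5.0e-06). Receptors Fgfr3 (-4.26 ± 0.36) and Fgfr4 (-3.78 ± 0.21) and the co-receptor Klb (-4.88 ± 0.49) were lower. Fgfr2, an FGF receptor of PrE, was at 29.4, 43.4 and 18.8 CPM in Pdgfra+ and at 7.67, 20.1 and 9.20 CPM in Oct4+ (-1.31 ± 0.42, adjusted p = 0.0186). This is short of the fold threshold, and its groups overlapped. It was lower without Oct4+ replicate 2 (-1.86, adjusted p = 0.00299) or without Pdgfra+ replicate 3 (-1.60, adjusted p = 0.00931). Flrt3, a membrane protein that binds FGF receptors, was at 539, 434 and 508 CPM in Pdgfra+ and at 6.59, 10.4 and 8.98 CPM in Oct4+ (-5.84 ± 0.22, adjusted p = 4.7e-07).

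ERK feedback and ETS target genes had 9 of 14 members higher in Oct4+ and Ier3 lower (-2.90 ± 0.56, list median 2.14). Etv5, an ETS factor downstream of FGF, was at 4.27, 12.6 and 4.28 CPM in Pdgfra+ and at 358, 407 and 262 CPM in Oct4+ (5.59 ± 0.44, adjusted p = 5.8e-06). Etv1 had 0 reads in Pdgfra+ and 35.7, 18.2 and 29.5 CPM in Oct4+, so that it was at least 263-fold higher against a floor of 3 reads over the group. Dusp6, the phosphatase that switches ERK off, was at 11.4, 8.57 and 5.11 CPM in Pdgfra+ and at 88.7, 95.8 and 85.1 CPM in Oct4+ (3.43 ± 0.30, adjusted p = 1.1e-05). Spry2 (2.65 ± 0.31) and Spry4 (2.99 ± 0.52), feedback inhibitors of receptor tyrosine kinases, rose with it. Egr1, an immediate early target, was not called (-1.16 ± 0.55), although it was lower without Pdgfra+ replicate 3 (-1.59, adjusted p = 0.0161), when 2 members of the list were lower.

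Other growth factor receptors also differed. Flt1, a VEGF receptor, was at 1217, 1133 and 1855 CPM in Pdgfra+ and at 4.88, 19.6 and 2.22 CPM in Oct4+ (-7.30 ± 0.75, adjusted p = 2.6e-05), and its ligand Vegfa was lower as well (-4.22 ± 0.28). Vegfc (5.92 ± 0.49) and its receptor Flt4 (3.80 ± 0.34) were higher, so that the pairs moved in opposite directions. Pdgfa, the ligand of PDGFRA, was at 21.6, 14.4 and 14 CPM in Pdgfra+ and at 59.5, 45.3 and 93.8 CPM in Oct4+ (1.99 ± 0.28, adjusted p = 1.7e-04). Of the 17 genes of the PDGF, KIT and VEGF list, 5 were higher and 7 were lower. In the LIF and JAK/STAT list 4 of 23 were higher and 4 were lower, also near the shares over all genes tested. Lif itself was lower (-3.30 ± 0.41), whereas its receptor chains Lifr (-0.77 ± 0.22) and Il6st (-0.35 ± 0.19) and the target Socs3 (-0.31 ± 0.37) were not called.

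Of 19 tested genes of the Nodal and Activin pathway, 9 were higher and 3 were lower. Nodal was at 3.91, 7.07 and 1.46 CPM in Pdgfra+ and at 143, 163 and 186 CPM in Oct4+ (5.29 ± 0.80, adjusted p = 2.8e-04). Its antagonist Lefty1 was at 2.32, 10.3 and 1.46 CPM in Pdgfra+ and at 192, 218 and 166 CPM in Oct4+ (5.33 ± 1.05, adjusted p = 0.00137), and the nuclear partner Foxh1 rose too (3.97 ± 0.58). Both Nodal and Lefty1 were highest in Pdgfra+ replicate 2 within that group. Fst, which binds Activin and blocks it, was at 496, 199 and 475 CPM in Pdgfra+ and at 2.25, 21.4 and 3.21 CPM in Oct4+ (-5.45 ± 0.98, adjusted p = 8.3e-04). Receptors Acvr1b (-0.03 ± 0.19) and Acvr2b (0.04 ± 0.24) were not called.

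BMP genes had 4 of 19 tested members higher and 6 lower, against 17.3% and 14.7% of all genes tested. Bmp4 was at 0.122, 0.199 and 1.15 CPM in Pdgfra+ and at 40.9, 18.8 and 8.65 CPM in Oct4+ (5.48 ± 0.77, adjusted p = 1.8e-04), and Bmp7 was also higher (5.57 ± 0.67, 3 reads in Pdgfra+). Bmp2 was at 58, 36 and 40.4 CPM in Pdgfra+ and at 1.09, 3.15 and 0.443 CPM in Oct4+ (-4.83 ± 0.54, adjusted p = 4.4e-05). The ligands thus moved in opposite directions, and the antagonist Nog fell with Bmp2 (-6.74 ± 0.85). The target genes Id1 (-0.22 ± 0.49), Id2 (0.89 ± 0.57) and Id3 (0.18 ± 0.35) were not called.

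In the WNT list, 8 of 23 tested genes were higher and 6 were lower, against 17.3% and 14.7% of all genes tested. Axin2, a general target of beta-catenin, was at 10.1, 5.88 and 11 CPM in Pdgfra+ and at 59.3, 54.7 and 44 CPM in Oct4+ (2.55 ± 0.25, adjusted p = 2.1e-05). Notum, a secreted enzyme that inactivates WNT, was at 0.977, 0.598 and 1.04 CPM in Pdgfra+ and at 62.6, 62.3 and 14.2 CPM in Oct4+ (5.72 ± 0.61, adjusted p = 3.4e-05). Cdx1, a homeobox target, had 2 reads in Pdgfra+ and 119, 5.62 and 154 CPM in Oct4+, a ratio of 1289-fold (95% interval 356 to 10645). Wnt11 (-5.22 ± 0.62), Wnt7b (-4.10 ± 0.57) and the antagonist Dkk1 (-3.58 ± 0.49) were lower. Nuclear partners of beta-catenin differed, with Lef1 higher (5.45 ± 0.89), Tcf7l2 lower (-3.90 ± 0.50) and Tcf7l1 not called (0.32 ± 0.15).

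Genes of epithelial architecture had 8 of 24 members lower and 3 higher, against 14.7% and 17.3% of all genes tested. Krt8, a keratin of simple epithelia, was at 346, 514 and 482 CPM in Pdgfra+ and at 12.3, 42.2 and 18.2 CPM in Oct4+ (-4.21 ± 0.42, adjusted p = 2.2e-05). Krt18 (-4.30 ± 0.48) and Krt19 (-5.65 ± 0.88) fell with it. Cldn6, a tight junction claudin, was at 667, 807 and 780.0 CPM in Pdgfra+ and at 10.2, 52.1 and 7.32 CPM in Oct4+ (-5.02 ± 0.68, adjusted p = 1.4e-04), whereas Cldn4 was higher (2.88 ± 0.35). Cdh1, E-cadherin, was at 713, 798 and 607 CPM in Pdgfra+ and at 540.0, 708 and 606 CPM in Oct4+ with overlapping groups (-0.19 ± 0.15, adjusted p = 0.288). Replicate 2 was the highest Oct4+ library for the 3 keratins and for Cldn6.

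Among 13 tested genes of mesenchymal transition, 6 were higher and 3 were lower. Fn1, fibronectin, was at 51.4, 40.6 and 138 CPM in Pdgfra+ and at 1067, 562 and 964 CPM in Oct4+ (3.49 ± 0.46, adjusted p = 1.2e-04). Zeb1, a zinc finger repressor, was at 1.10, 0.199 and 1.25 CPM in Pdgfra+ and between 14.9 and 26.9 CPM in Oct4+ (4.58 ± 0.55, adjusted p = 6.9e-05), while Snai1 was lower (-1.90 ± 0.42). Contractile genes had 9 of 19 tested members lower and none higher (median -1.55), among them Myh9, a non-muscle myosin (-2.39 ± 0.26), and Cnn2, a calponin (-3.45 ± 0.24). Among integrins, syndecans and glypicans, 5 of 20 tested were higher and 4 were lower, against 17.3% and 14.7% of all genes tested. Gpc3, a glypican, was at 559, 736 and 854 CPM in Pdgfra+ and at 37.4, 47.5 and 45.8 CPM in Oct4+ (-4.04 ± 0.22, adjusted p = 1.3e-06), and Gpc1 was higher (2.96 ± 0.32).

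Of 26 genes of glucose transport and glycolysis, 5 were higher and 3 were lower, shares near the 17.3% and 14.7% over all genes tested. Pdk1, a kinase that inhibits pyruvate dehydrogenase, was at 49.4, 22 and 51.6 CPM in Pdgfra+ and at 337, 388 and 258 CPM in Oct4+ (3.00 ± 0.37, adjusted p = 7.5e-05). Pdk4 was higher (7.20 ± 0.57) and Pdk2 was lower (-2.58 ± 0.41). Of 21 genes of threonine, serine and one-carbon metabolism, 4 were higher, a share near that over all genes tested, and none was lower (median 0.95). Without Pdgfra+ replicate 2 or on total counts, 7 were higher. Tdh, the threonine dehydrogenase on which mouse embryonic stem cells depend, was at 31, 55.4 and 39.9 CPM in Pdgfra+ and at 589.8, 576 and 195 CPM in Oct4+ (3.43 ± 0.44, adjusted p = 1.0e-04). Amt, of the glycine cleavage system, was higher as well (3.43 ± 0.30), while Gldc of the same system was not called (-0.08 ± 0.41).

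Of 23 genes of the cholesterol list 3 were lower, a share near the 14.7% over all genes tested, and none was higher. Insig1, which holds back sterol synthesis when sterols are plentiful, was at 760.3, 429 and 657 CPM in Pdgfra+ and at 131, 93.3 and 85 CPM in Oct4+ (-2.57 ± 0.37, adjusted p = 2.0e-04). Retinoid genes split evenly, with 7 of 17 tested higher and 6 lower. Rarg, a retinoic acid receptor, was at 25.3, 26.6 and 13.9 CPM in Pdgfra+ and at 470.1, 299 and 228 CPM in Oct4+ (3.92 ± 0.35, adjusted p = 1.2e-05). Stra6, the receptor that takes up retinol, was at 138, 139.6 and 146 CPM in Pdgfra+ and at 4.81, 2.56 and 6.43 CPM in Oct4+ (-4.94 ± 0.42, adjusted p = 9.6e-06). Rdh10, which makes retinaldehyde, was lower (-2.93 ± 0.27), and the binding proteins Crabp1 (4.98 ± 0.59) and Crabp2 (4.41 ± 0.44) were higher.

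D-type cyclins, which drive entry into the cell cycle, moved in opposite directions. Ccnd1 was at 2.69, 3.79 and 1.36 CPM in Pdgfra+ and at 55.3, 91.8 and 6.32 CPM in Oct4+ (4.28 ± 0.82, adjusted p = 0.00117). Ccnd2 was at 449.6, 384 and 313 CPM in Pdgfra+ and at 12.2, 23.9 and 1.77 CPM in Oct4+ (-4.91 ± 0.72, adjusted p = 2.2e-04). Both were lowest among the Oct4+ libraries in replicate 3, and Ccnd3 was not called (-0.39 ± 0.21). Cdk6, their kinase, was higher (4.65 ± 0.38) while Cdk4 was not called (0.46 ± 0.11). Of 21 genes of the G1 list 3 were higher and 2 were lower, shares below the 17.3% and 14.7% over all genes tested. The lower members of the list were 1 without Oct4+ replicate 1 and 3 without Oct4+ replicate 2 or 3 or Pdgfra+ replicate 3. On total counts 5 were higher and 1 was lower. Of 23 genes of S phase and mitosis, Mcm5 alone was called in the fit reported (1.58 ± 0.23), and that call was lost without Oct4+ replicate 2 (1.31, adjusted p = 4.0e-04). On total counts 7 of the 23 were higher, and 2 were without replicate 3 of either group. Mki67, the proliferation antigen, was at 192, 289 and 258 CPM in Pdgfra+ and at 247, 178 and 151 CPM in Oct4+ (-0.36 ± 0.24, adjusted p = 0.220). Pcna (1.33 ± 0.13) and Mcm2 (1.38 ± 0.14) differed by less than the fold threshold but passed it on total counts (1.61, adjusted p = 9.3e-06 and 1.66, adjusted p = 9.9e-06).

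Imprinted genes had 7 of 24 tested members higher and 8 lower, against 17.3% and 14.7% of all genes tested. Igf2, a growth factor expressed from the paternal allele, was at 1757, 1563 and 2159.6 CPM in Pdgfra+ and at 17.2, 72.8 and 4.32 CPM in Oct4+ (-5.86 ± 0.90, adjusted p = 3.1e-04). H19, the RNA expressed from the maternal allele of the same locus, was at 1170.5, 971 and 2425 CPM in Pdgfra+ and at 10.3, 18.4 and 67.6 CPM in Oct4+ (-5.58 ± 0.82, adjusted p = 2.4e-04). Both members of that locus were lower in Oct4+. Meg3, Rian and Mirg, maternal RNAs of the Dlk1 locus, were all higher (2.91 ± 0.45, 3.39 ± 0.44 and 4.23 ± 0.57), whereas Dlk1 was not called (1.23 ± 0.69) but was higher without Pdgfra+ replicate 3 (2.69, adjusted p = 0.00507). Mest, a paternally expressed gene, was at 3.78, 3.69 and 7.20 CPM in Pdgfra+ and at 90.9, 129.9 and 193 CPM in Oct4+ (4.81 ± 0.35, adjusted p = 4.3e-06). The libraries give no alleles, and imprinting itself was not measured.

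Markers of other cells were examined beside these results, since the cultures contain feeders. Of 15 fibroblast markers 9 were tested, 6 were higher in Oct4+ and 1 was lower, and 4 were higher without Oct4+ replicate 1. Their summed level was 77, 144 and 54.3 CPM in Pdgfra+ and 196, 48.1 and 40.1 CPM in Oct4+. Col1a1, a fibrillar collagen, was at 0, 0.398 and 2.61 CPM in Pdgfra+ and at 68.3, 5.23 and 2.66 CPM in Oct4+ (4.62 ± 1.33, adjusted p = 0.0117), and without Oct4+ replicate 1 its fold change was 1.92, adjusted p = 0.123. Col1a2 behaved in the same way (3.24 ± 1.05, and 1.09, adjusted p = 0.235 without that library), and its call was also lost when any Pdgfra+ replicate was left out. Dcn, a defining fibroblast marker, was at 4.34, 0 and 0 CPM in Oct4+, and Postn at 10.2, 0 and 0.111 CPM. These 4 genes were highest in Oct4+ replicate 1, whereas the sum in Pdgfra+ came mostly from Fbn1, the fibrillin gene, at 70.2, 139 and 35.2 CPM there and at 12.9, 6.31 and 5.87 CPM in Oct4+ (-3.27 ± 0.67, adjusted p = 0.00176). Unlike those 4 genes, the fibrillar collagen Col5a2 was even across Oct4+, at 8.60, 9.66 and 7.87 CPM. It had 3 reads in Pdgfra+ (6.17 ± 0.70, adjusted p = 4.7e-05). Mmp3 had 1 read in the 6 libraries, and Lum and Prrx1 stayed below 1 CPM in all 6 libraries. Without Oct4+ replicate 1 the comparison called 4579 genes, of which 2503 were higher and 2076 were lower, and 4244 of them were among the 4535. The part of fibroblast RNA in the matrix genes higher in Oct4+, such as Fn1 and Loxl1, was not tested beyond leaving out that library.

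Trophectoderm markers had 6 of 13 tested members higher and 4 lower, and their summed level was 159.9, 161 and 162 CPM in Pdgfra+ and 147, 161 and 183 CPM in Oct4+. Cdx2, the defining factor, was low in both and lower in Oct4+ (4.64, 4.28 and 9.08 CPM against 0.620, 2.37 and 1.33 CPM, -2.07 ± 0.51, adjusted p = 0.00501). Tfap2c, which germ cells and naive cells also express, was higher (6.04 ± 0.57). Of other trophoblast genes, Ascl2 (4.08 ± 0.73, 3 reads in Pdgfra+), Esx1 (1.80 ± 0.43) and Gata3 (2.61 ± 0.83) were higher. Eomes was not called (0.90 ± 0.27). The Gata3 call was lost without Oct4+ replicate 3 or Pdgfra+ replicate 1. Elf5 had 8 reads in Pdgfra+ and 0 in Oct4+ and was not tested. Of 10 neural ectoderm markers 5 were tested and 3 were higher, among them Sox1 and Pax6. Sox1 had 0 reads in Pdgfra+ and 13.2, 4.93 and 4.66 CPM in Oct4+ (at least 75.6-fold), and Pax6 had 0 reads and 1.47, 5.03 and 2.33 CPM (at least 26.3-fold). Of 10 mesoderm and primitive streak markers 3 were tested and Mesp2 alone was called (4.65 ± 0.54), whereas 2 or 3 were called when any library but Oct4+ replicate 2 was left out. Immediate early and heat shock genes, which can respond to dissociation and sorting, had 3 of 15 tested members higher and 5 lower. The shares over all genes tested were 17.3% and 14.7%. Atf3 was at 62.4, 124 and 90.7 CPM in Pdgfra+ and at 3.80, 15.9 and 4.99 CPM in Oct4+ (-3.50 ± 0.49, adjusted p = 1.8e-04). The heat shock genes Hspb1 (2.50 ± 0.31) and Hspa1a (2.33 ± 0.48) were higher, while Hspa1b (1.34 ± 0.25) and Dnajb1 (0.01 ± 0.20) were not called. Fos was not called either (-1.62 ± 0.68). Fos was lower without Pdgfra+ replicate 3 (-2.03, adjusted p = 0.0255), by DESeq2 (-1.54, adjusted p = 0.0368), without a filter (-1.66, adjusted p = 0.00559) and over the 6 libraries alone (-1.59, adjusted p = 0.0483). Of 15 targets of p53, 2 were higher, a share near the 17.3% over all genes tested, and none was lower. Mdm2 was not called (0.13 ± 0.19). Without Oct4+ replicate 2, 1 was higher and 1 lower, and without replicate 3 of either group 2 were lower.

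The Oct4+ libraries differed among themselves in groups of genes rather than in one direction. Several formative genes were highest in replicate 2, whereas Sox3 of the same list was lowest there. Pou3f1, a POU factor of the formative state, was at 6.82, 55 and 6.76 CPM, and the summed level of that list was 896, 1377 and 630.1 CPM. The median log2 difference of its members from the Pdgfra+ mean was 2.45, 4.18 and 0.82. Cdx1 and Tfcp2l1 were lowest in the same replicate. The 2-cell-like genes, Rhox5 and H19 were highest in replicate 3, where Ccnd1, Ccnd2 and Zic2 (133, 107 and 18.3 CPM) were lowest. Col1a1 and Col1a2 were highest in replicate 1. These genes were picked after their values were seen, and the design holds too few libraries to test one replicate against the others. Across the same libraries, Pou5f1 stood at 981 ± 142 CPM and Sox2 at 384 ± 94.2 CPM (mean ± SD, n = 3). A smaller spread than that of genes picked for theirs follows from the choice, and Pou5f1 was also set by the gate.

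**Figure D5:**
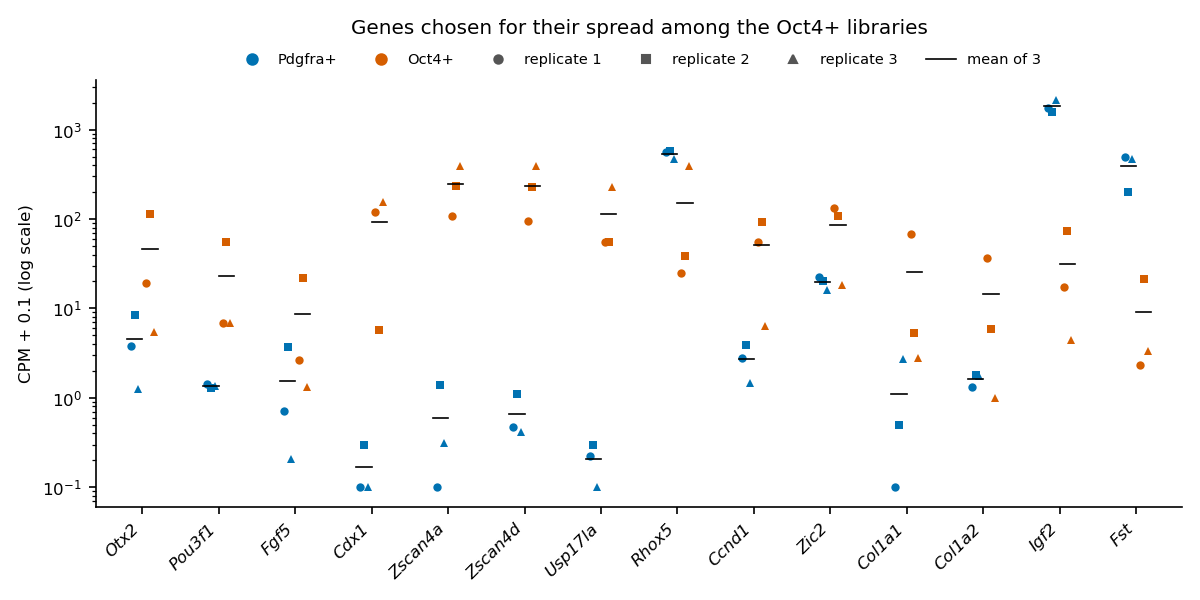
Level of 14 genes, chosen for their spread among the Oct4+ replicates, in each Pdgfra+ and Oct4+ library as CPM + 0.1 on a log axis, with a bar for the mean of 3. Otx2, Pou3f1 and Fgf5 are highest in Oct4+ replicate 2, Zscan4 genes and Rhox5 in replicate 3, and Col1a1 in replicate 1.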

How the data were processed

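RNA of sorted cells was made into directional, single-end libraries. The deposited table holds raw, unnormalised counts of the authors for each gene symbol in 9 libraries, of which 3 Oct4+ and 3 Pdgfra+ libraries were compared. How these reads were aligned and counted, with which annotation and strand setting, is not given in the sources used here, so that overlapping and antisense genes cannot be told apart with certainty. Blank lines (35) were left out. Counts were filtered with filterByExpr, scaled by TMM and fitted over all 9 libraries by group in edgeR 4.0.16 (R 4.3.3) with the quasi-likelihood test, and DESeq2 1.42.0 was an alternative. The p-values measure the spread between these libraries, which the study calls biological replicates. Replicates differed by more than sampling noise (chi-square per degree of freedom 19.4 to 33.7). Over all genes tested, same-numbered libraries did not deviate together, which cannot exclude that they came from a shared sort. Gene coordinates came from GENCODE vM21 (13825 of 14185 symbols matched) and the promoter from RefSeq. Promoter windows covered 75.1% of the genes tested, under 80%, so that a comparison of motifs between gene groups was void. Ratios for genes with 1 to 3 reads in a group carry 95% intervals that cover counting error only.

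Members and gene lists were chosen with earlier results of these data known. Genes were named by rule: the genes of the sort and its markers, the 10 largest changes in each direction (no overlap, at least 50 CPM in the higher group, at least 10 reads in the lower, predicted genes left out), and for each of 38 lists the first 3 members and the 3 largest called changes of at least 5 CPM. Other genes named, among them uncalled members of lists, were chosen after their values were seen. Some genes that the rule picks are not reported here.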

Additional observations from a re-analysis of the deposited data

How the results depend on the processing

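Against 4535 called genes (2455 higher, 2080 lower), edgeR with DESeq2's size factors called 4497, DESeq2 4513 and the 6 libraries alone 4411. Total counts without TMM called 4492 (2840 higher, 1652 lower) and moved the median of all genes to 0.29, and 4107 of those calls were shared. Without a filter 3940 genes were higher, with a stricter one (at least 5 CPM in 3 libraries) 1462, beside 1595 lower, and beyond a log2 fold change of 3 there were 2261 (1539 higher, 722 lower). Leaving out 1 library gave 4579 to 4949 calls, 2503 to 2816 higher and 1975 to 2215 lower. No gene called in both settings changed direction in any of these fits. Same-numbered libraries of the groups had correlations of -0.0465 to 0.0383 in their deviations over all genes tested. The labels do not say whether same-numbered libraries came from a shared sort, and such correlations cannot exclude it. With the replicate block, 4548 genes were called over 9 libraries (2462 higher, 2086 lower) and 4427 over 6. The block over 9 libraries called Fgf5, Rhox5, Mycn and Dlk1 and lost Col1a2, and that over 6 also lost Col1a1. Among the 268 tested genes named here or by the rule, 208 were called, 197 of these kept the call in each of 14 alternatives that tested them, and 17 gained one. The medians of the BMP, G1 and glycolysis lists, all near 0, changed sign under another scaling, and on total counts the lower members of the LIF and of the integrin list were 2 each in place of 4. Genes with few reads in one group have fold changes that depth limits.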
